A study of Mus musculus with 4 samples.

Results

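The genes described here are 6 genes of antibody-secreting cells, Jchain, Tnfrsf17, Mzb1, Ighm, Igkc and Xbp1, followed through the cell types and monocyte clusters of mouse CD11b+ splenocytes. Jchain and Tnfrsf17 were picked as leading genes of the deposited cell type MoMacDC_c1, and they were picked from the same counts that are described here. Their levels in MoMacDC_c1 are therefore a description and not a test. Of the 27998 genes counted in the series, 4 of the 6 members were measured here, Jchain, Tnfrsf17, Mzb1 and Xbp1, while Ighm and Igkc were not analysed here. The label of the set speaks of monocyte clusters, and the data went against it for the first 3 of these genes. Nearly all Jchain and Tnfrsf17 molecules lay in 17 of 11631 cells that carried plasma cell markers and in which classical monocyte markers were low or at 0.

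The study profiled splenocytes of C57BL/6 mice, aged 8 to 12 weeks by the study's methods, that were sorted for CD11b, the integrin chain encoded by Itgam. In CITE-seq, the RNA of a cell and DNA-tagged antibodies on its surface are counted in the same droplet, and a unique molecular identifier (UMI) marks each captured molecule. The untreated steady-state library had 22358903 UMIs over 4827 cells (median 3371). The library after GM-CSF had 35007567 UMIs over 6804 cells (median 4916). In the GM-CSF-treated group, 10 µg of the cytokine was given under the skin on each of 3 days, and cells were taken 24 h after the last dose. Each condition was 1 library, and the number of mice behind it is not given in the sources used here. An effect of GM-CSF and a difference between 2 libraries cannot be told apart, so no test between conditions was made. Levels are given as UMIs of a gene per 1000000 UMIs of the group (CPM) with exact Poisson intervals, shares of cells with exact binomial (Clopper-Pearson) intervals and ratios of CPM with exact intervals, all at 95%. These intervals cover counting error only. Cell types, clusters and subsets are the labels deposited by the authors, among which MoMacDC_c1, c2, c4 and c5 are groups of monocytes, macrophages and DCs.

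Plasma cells and their dividing precursors, the plasmablasts, arise from activated B cells and secrete antibody. They turn off the B cell factor Pax5 under the repressor Blimp-1, encoded by Prdm1, and widen the endoplasmic reticulum to fold and export immunoglobulin. Jchain encodes the joining chain, which links IgM and IgA into polymers. Tnfrsf17 encodes BCMA, a receptor for the cytokines BAFF and APRIL that sustains plasma cells. Mzb1 encodes a helper protein of the endoplasmic reticulum that aids antibody assembly in marginal zone B cells and plasma cells. Xbp1 encodes a transcription factor of the unfolded protein response, which is needed for antibody secretion and is also used by many myeloid cells. Ighm and Igkc encode the heavy chain of IgM and the kappa light chain. The spleen holds plasma cells together with the monocytes, neutrophils and DCs that a CD11b sort enriches.

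The gene of Jchain lies on the minus strand of chromosome 5 at 88519809 to 88527891, that of Tnfrsf17 on the plus strand of chromosome 16 at 11313812 to 11320074 and that of Xbp1 on the plus strand of chromosome 11 at 5520659 to 5525893 (GRCm38, GENCODE vM21). The 250 bases before the RefSeq start of each (GRCm38.p6) are shown because the 3 genes were all high in the cells described below while Xbp1 was also found in nearly every other cell type. They are given 5′ to 3′ on the gene's own strand, at chr5:88527898-88528147 for Jchain, chr16:11313559-11313808 for Tnfrsf17 and chr11:5520391-5520640 for Xbp1. Capitals mark a match to 1 of 4 motifs.
Jchain: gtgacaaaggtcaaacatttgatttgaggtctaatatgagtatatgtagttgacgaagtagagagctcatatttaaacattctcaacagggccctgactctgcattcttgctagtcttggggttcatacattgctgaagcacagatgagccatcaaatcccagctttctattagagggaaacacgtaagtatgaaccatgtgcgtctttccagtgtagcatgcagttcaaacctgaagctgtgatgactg
Tnfrsf17: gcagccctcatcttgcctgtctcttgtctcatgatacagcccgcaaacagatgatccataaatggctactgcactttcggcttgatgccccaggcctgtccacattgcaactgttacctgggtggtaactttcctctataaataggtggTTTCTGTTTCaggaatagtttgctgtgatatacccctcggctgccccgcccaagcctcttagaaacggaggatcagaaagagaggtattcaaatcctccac
Xbp1: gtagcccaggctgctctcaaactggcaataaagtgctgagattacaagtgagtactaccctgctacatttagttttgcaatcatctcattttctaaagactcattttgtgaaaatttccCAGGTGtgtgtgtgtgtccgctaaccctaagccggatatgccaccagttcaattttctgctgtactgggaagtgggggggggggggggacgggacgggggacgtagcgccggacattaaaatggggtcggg
The motifs were searched on both strands, and no match overlapped another. The octamer ATGCAAAT, the site of Oct factors and their partner Pou2af1, is found in 526 of 32851 promoters of this length (1.60%), and the letters were not in these 3 windows. The E-box CAGGTG, found in 5657 (17.2%), was in the Xbp1 window, 131 to 126 bases before the start. The core CCACG of the unfolded protein response element, found in 9311 (28.3%), was in none of the 3. The repeat read by interferon regulatory factors such as Irf4, searched as GAAA, any 2 bases and GAAA again, is in 978 (2.98%) and was in the Tnfrsf17 window on its minus strand, 101 to 92 bases before the start. The matches describe letters and say nothing of binding.

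Jchain molecules were concentrated in very few cells. Of 11631 cells, 98 held a Jchain UMI, of which 74 held 1, 7 held 2 to 12 and 17 held 296 to 939. No cell lay between 12 and 296, and cells with at least 100 are called Jchain-high here, a limit set after the counts had been seen. The 17 Jchain-high cells held 10329 of the 10441 Jchain UMIs of the series (98.9%). They held 165 of 169 Tnfrsf17 UMIs (97.6%), and the other 4 lay in 4 B cells. Every Jchain-high cell had Tnfrsf17, and no cell outside these 17 and the B cells had it. Of 2057 Mzb1 UMIs, 1390 (67.6%) were in the 17 cells and 613 (29.8%) in B cells, which left 54 elsewhere. Xbp1 was spread otherwise, with 485 of 11359 UMIs (4.27%) in the 17 cells and at least 1 UMI in 5637 cells. No Jchain-high cell used any of the 8 cell barcodes that the libraries shared.

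The deposited labels placed 15 of the 17 cells in MoMacDC_c1 and 2 in MoMacDC_c4. At the finer level, 16 of them made up nearly all of cluster 16 of the monocyte, macrophage and DC bundle, which held 17 cells, 15 of steady state and 2 of the GM-CSF-treated library. The remaining cell was in cluster 8. None fell in the CD115hi gate that the study used for its subsets I to IV. Most of the 6075 bundle cells, 1952 of steady state and 3256 of the GM-CSF-treated library, also lay outside that gate. Of the 17, 16 came from the steady-state library, which was 0.331% of its cells (0.190 to 0.538%), and 1 from the GM-CSF-treated library (0.0147%, 0.000372 to 0.0819%).

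By cell type, steady-state MoMacDC_c1 held 8734 Jchain UMIs in 38 of 1277 cells, or 917 CPM (898 to 937), and GM-CSF-treated MoMacDC_c1 held 464 in 3 of 1342 cells, or 53.5 CPM (48.8 to 58.6). Steady-state MoMacDC_c4 held 1167 UMIs in 5 of 43 cells (2597 CPM), against 1 UMI after GM-CSF. These 3 levels rested on 14, 1 and 2 Jchain-high cells. Once they were left out, steady-state MoMacDC_c1 held 24 UMIs in 24 of 1263 cells (2.56 CPM, 1.64 to 3.81) and GM-CSF-treated MoMacDC_c1 held 2 (0.231 CPM, 0.0280 to 0.835). That level was below that of steady-state granulocytes (4.63 CPM, 2.69 to 7.41), with intervals that overlapped. Steady-state B cells stood at 29.7 CPM (19.4 to 43.5) with 26 UMIs in 8 of 196 cells. After GM-CSF, 0 of 79 B cells had a UMI, where 3 counts would be 12 CPM and the exact upper limit is 14.7 CPM. Macrophages reached 51.9 CPM (16.8 to 121) through 5 UMIs in 1 of 25 cells. Without the Jchain-high cells, the interval of every cell type overlapped that of the next in order, in both libraries. Types further apart in the order could differ, and the steady-state B cell interval lay above those of MoMacDC_c1 and granulocytes.

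**Figure D1:**
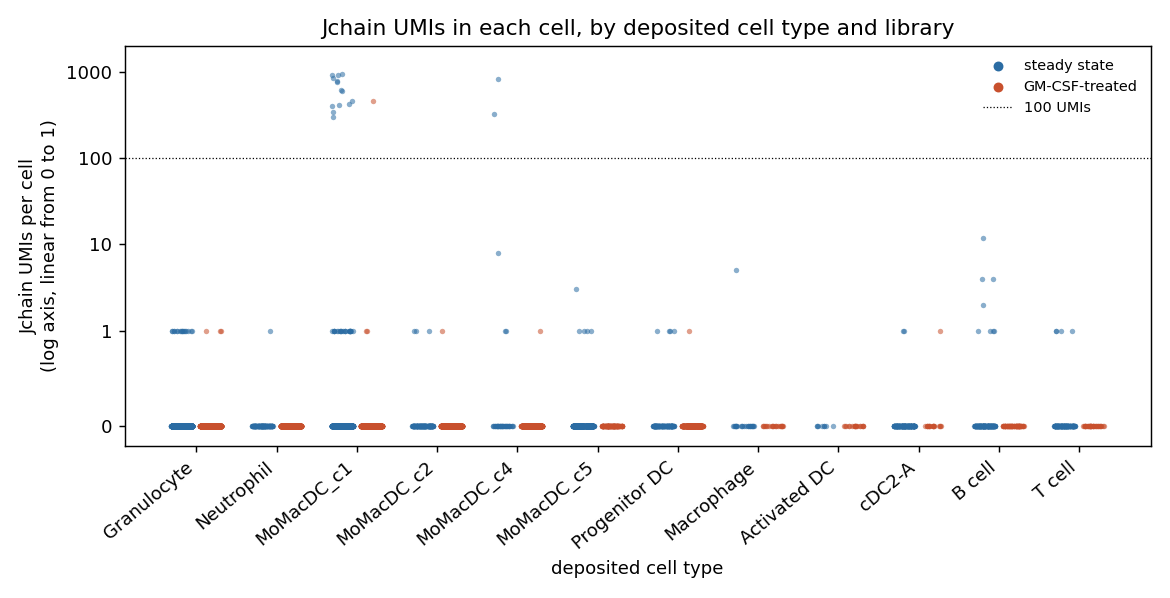
Jchain UMIs of each cell (log axis, linear from 0 to 1) by deposited cell type, in blue for steady state and red for GM-CSF-treated, with a dotted line at 100 UMIs. Above the line lie 15 cells of MoMacDC_c1 and 2 of MoMacDC_c4, and every other cell has at most 12 UMIs.

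Tnfrsf17 followed the same cells and no others apart from B cells. It had 148 UMIs in 14 cells of steady-state MoMacDC_c1 (15.5 CPM), 5 UMIs in 1 cell of GM-CSF-treated MoMacDC_c1 (0.577 CPM) and 12 UMIs in 2 cells of steady-state MoMacDC_c4. Each of these 17 cells was Jchain-high. Steady-state B cells had 4 UMIs in 4 cells (4.57 CPM, 1.24 to 11.7). Without the Jchain-high cells, MoMacDC_c1 had 0 UMIs in both libraries. The 3 counts that 0 allows are 0.320 CPM in steady state and 0.347 CPM after GM-CSF, and the exact upper limits are 0.394 and 0.426 CPM. The subsets I to IV of CD115hi cells had 0 Tnfrsf17 UMIs in both libraries.

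The Jchain-high cells differed several-fold among themselves in every member. Over the 17, Jchain ran from 296 through a median of 595 to 939 UMIs. As a share of all UMIs of a cell it ran from 2.0% through a median of 5.0% to 12.8%. Tnfrsf17 ran from 2 through 9 to 31 UMIs, Mzb1 from 12 through 59 to 256 and Xbp1 from 7 through 19 to 89. Mzb1 per Jchain UMI ran from 0.0131 through 0.124 to 0.554. The single GM-CSF-treated cell, with 462 Jchain and 5 Tnfrsf17 UMIs, had the highest Mzb1 count of the 17 (256) and shared the lowest Xbp1 count (7). It also had the most Hsp90b1, the endoplasmic reticulum chaperone GRP94, with 670 UMIs against a median of 106. The cells were rich in RNA, with 5905 to 24311 UMIs (median 11832) and 1951 to 4559 genes (median 2943), against a median of 7298 UMIs in the other steady-state MoMacDC_c1 cells and 2976.5 in steady-state B cells. The doublet caller Scrublet marked 0 of the 17.

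The Ly6C and MHC II antibody tags set these cells apart from the other MoMacDC_c1 cells of steady state. In the 16 steady-state Jchain-high cells the median was 48.5 counts for Ly6C, the glycoprotein of classical monocytes, against 931 in the other steady-state MoMacDC_c1 cells and 24 in B cells. For MHC II the median was 527.5 counts, against 9 in the other MoMacDC_c1 cells and 444 in B cells. GM-CSF-treated MoMacDC_c1 cells other than the Jchain-high had medians of 47 counts for Ly6C and 167 for MHC II. Low Ly6C counts were thus not particular to the Jchain-high cells. CD115, the receptor for M-CSF, had 0 to 7 counts in all 17 cells, and the DC lectin CD301b had 0 to 6. The other steady-state MoMacDC_c1 cells had medians of 5 and 6 counts, within these ranges, so these 2 tags did not part the groups. CD11c ran from 2 to 142 with a median of 6, against a median of 3 in the other steady-state MoMacDC_c1 cells. For this tag, 4 of the 17 cells stood apart from the others.

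These 4 cells, all of steady state, had CD11c tags of 61 to 142 counts, while the other 13 had 2 to 10. The same 4 held 26 to 101 UMIs of 4 myeloid genes summed, Csf1r, Lyz2, Fcer1g and Tyrobp, and the other 13 held at most 14. The limit of 20 UMIs that parts them was set after the values had been seen. All 4 had a Csf1r UMI and none of the 13 did. Jchain was 296 to 456 in the 4 cells, within the lower range of the 17, and their median depth was 14186 UMIs against 11802. Whether myeloid RNA in these 4 cells came from a second cell in the droplet was not tested. Itgam was found in 12 of the other 13 cells, with 45 UMIs (290 CPM).

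**Figure D2:**
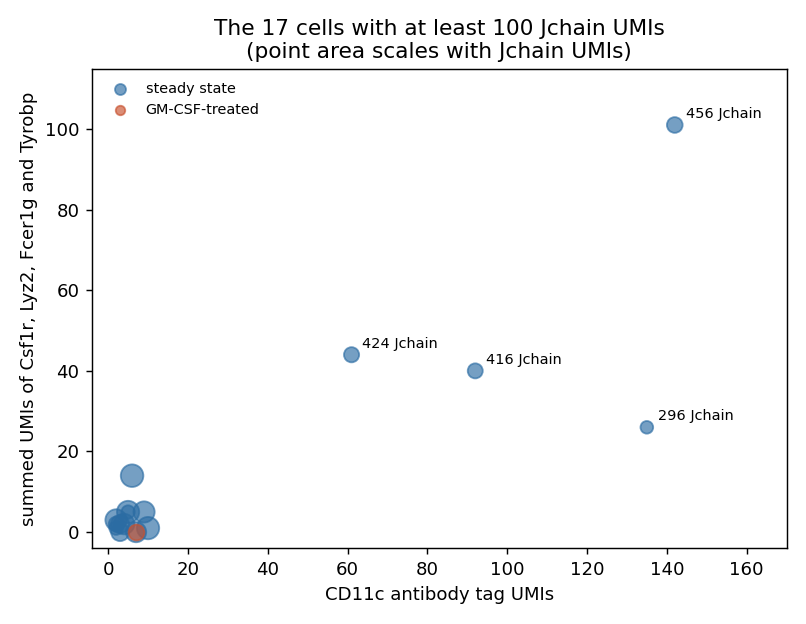
UMIs of Csf1r, Lyz2, Fcer1g and Tyrobp summed against counts of the CD11c tag in each of the 17 Jchain-high cells, in blue for steady state and red for GM-CSF-treated, with point area that scales with Jchain UMIs. The 4 cells with 26 to 101 myeloid UMIs are the 4 with 61 to 142 CD11c counts, and 13 cells lie at 14 UMIs or fewer and 10 counts or fewer.

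Per-cell co-detection separated the Jchain-high cells from the rest of MoMacDC_c1. Of the 38 steady-state MoMacDC_c1 cells with a Jchain UMI, 14 also had Tnfrsf17 (36.8%), and the same 14 had Mzb1 and Derl3, a component of the endoplasmic reticulum degradation machinery. These 14 were the Jchain-high cells. The other 24 held 1 Jchain UMI each, and 0 of 24 had a UMI of Tnfrsf17, Mzb1, Derl3, Fkbp11, Pou2af1 or Cd79a. They carried monocyte RNA instead, with the chemokine receptor Ccr2 in 21, Csf1r in 21, Itgam in 22 and lysozyme 2 (Lyz2) in 24 of 24. Their median depth was 6957.5 UMIs, against 7306 in the 1239 cells without Jchain. Among those 1239 cells, 0 had Tnfrsf17 and 3 had Mzb1, while 90.6% had Ccr2 and 96.9% had Csf1r.

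Single Jchain UMIs were also found in cells that should lack the gene. In steady state, 1.90% of MoMacDC_c1 cells other than the Jchain-high (1.22 to 2.81%, median 7298 UMIs) and 0.881% of granulocytes (0.514 to 1.41%, median 1770 UMIs) had a Jchain UMI. With each cell thinned to 1000 UMIs, the shares were 0.396% and 0.521%, and T cells stood at 1.16%. The 17 granulocytes with Jchain had 0 Tnfrsf17 and 0 Mzb1. At equal depth, the share in MoMacDC_c1 outside the Jchain-high cells was not above that of granulocytes, so no expression is read from it. Outside the Jchain-high cells and B cells, the Jchain level of the steady-state library was 3.62 CPM (2.85 to 4.52, 77 UMIs in 64 of 4615 cells) and that of the GM-CSF-treated library 0.259 CPM (0.118 to 0.492, 9 UMIs in 6724 cells). cDC2-A cells went the other way, with 2 UMIs in steady state (2.33 CPM) and 1 after GM-CSF (15.9 CPM). Whether RNA released by Jchain-high cells had a part in these UMIs was not tested.

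The ratio of the members to each other gave a further comparison. Jchain-high cells held 0.115 Mzb1 UMIs per Jchain UMI (0.108 to 0.122) and 0.0162 Tnfrsf17 UMIs per Jchain UMI. Outside them and the B cells, 0 Tnfrsf17 UMIs accompanied 77 Jchain UMIs in steady state, and the upper bound of 0.0491 per Jchain UMI holds the value of the Jchain-high cells. In the pooled sums of the same cells, the other genes stood above their values in Jchain-high cells. Mzb1 had 0.623 UMIs per Jchain UMI (0.425 to 0.905), Pou2af1 0.416 (0.266 to 0.635) against 0.0140 in Jchain-high cells, Cd79a 0.883 (0.628 to 1.24) against 0.00912, and Derl3 0.0779 (0.0277 to 0.177) against 0.0122. Single cells weighed on these pooled sums of 48 Mzb1, 77 Jchain and 68 Cd79a UMIs. In MoMacDC_c4, 1 cell held 22 Mzb1, 8 Jchain and 29 Cd79a UMIs, and another held 4, 1 and 12. A MoMacDC_c1 cell held 11 Mzb1 and 0 Jchain UMIs. Ratios without these cells are not given, so no difference across the cell types is read from the pooled values. In steady-state granulocytes alone, on 4 and 17 UMIs, Mzb1 per Jchain UMI was 0.235 (0.0576 to 0.721), an interval that holds the 0.115 of the Jchain-high cells. The other MoMacDC_c1 cells had 0.542 (0.253 to 1.11), but 11 of their 13 Mzb1 UMIs lay in 1 cell without Jchain. B cells stood apart at 12.7 (8.53 to 19.8).

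**Figure D3:**
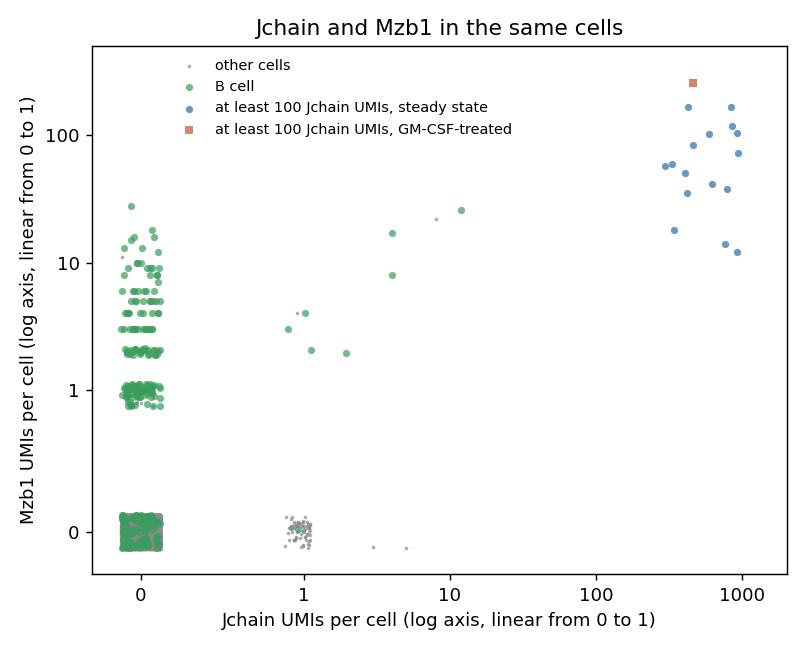
UMIs of Jchain (x axis) and Mzb1 (y axis) in each cell, both on log axes that are linear from 0 to 1, with points at 2 or fewer spread for view and B cells in green. The 17 Jchain-high cells lie at 296 to 939 Jchain UMIs with 12 to 256 of Mzb1, and every other cell has at most 12 Jchain UMIs.

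B cells carried Mzb1 in most cells, and Jchain and Tnfrsf17 in few. Mzb1 stood at 378 CPM (338 to 421) in steady-state B cells and 1123 CPM (996 to 1262) in GM-CSF-treated B cells, in 59.7 and 69.6% of cells. Of the 188 steady-state B cells without Jchain, 110 had Mzb1 (58.5%) and 1 had Tnfrsf17. Of the 8 with Jchain, 7 had Mzb1, 3 had Tnfrsf17 and 2 had Derl3. Their median depth was 8906.5 UMIs, against 2976.5 in all steady-state B cells. Shares at equal depth are not given for these 8 cells, so no co-detection is read from them. Compared with all steady-state B cells, the 16 steady-state Jchain-high cells had Jchain 1700-fold, Tnfrsf17 179-fold, Mzb1 15.3-fold (13.6 to 17.4) and Xbp1 19.6-fold higher (15.9 to 24.4). Prdm1 was 76.2-fold and Irf4, the interferon regulatory factor of plasma cell formation, 3.34-fold higher. The B cell genes went the other way. The antigen receptor chains Cd79a and Cd79b stood at 0.246 and 0.329 times the B cell level and the CD20 gene Ms4a1 at 0.00962 times. Pax5, with 477 UMIs in B cells, was at 0 in all 17.

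Against the other 1263 steady-state MoMacDC_c1 cells, all 4 measured members were at least 2-fold higher in the 16 Jchain-high cells, where 15.7% of the 8562 genes tested were. The cells were chosen on Jchain, so the count describes them and nothing is read from it. Jchain stood at 50445 against 2.56 CPM, a ratio of 19685 (13222 to 30738). Mzb1 stood at 5798 against 1.39 CPM, a ratio of 4177. Tnfrsf17 stood at 818 CPM against 0 UMIs, at least 2554-fold higher with the 3 counts that 0 allows over the group. The exact lower bound of its ratio was 2053. Xbp1, which the monocytes also carried, stood at 2444 against 288 CPM, a ratio of 8.48 (7.68 to 9.35).

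Of the fixed list of 26 plasma cell genes, 16 were in the table, 15 were at least 2-fold higher and 1, the protease inhibitor Slpi, was lower at 0.0525 times. The median log2 ratio of the list was 6.51, against -0.18 over all genes tested. Beyond the members, Fkbp11, an endoplasmic reticulum peptidyl-prolyl isomerase, was found in 13 of 16 cells. With the 3 counts that 0 allows it was at least 1979-fold higher, and its exact lower bound was 1586. Derl3 was at least 1915-fold higher by the same rule (exact lower bound 1534) and found in all 16. The Oct coactivator Pou2af1 was 1652-fold higher, also in all 16. Eaf2, an elongation factor partner, was 739-fold higher. The syndecan Sdc1 (CD138), the usual surface marker of plasma cells, was 166-fold higher and found in 13 cells. Prdm1 was 14.3-fold and Irf4 15.4-fold higher, in 14 and 15 cells. The list holds the 4 members, Jchain among them, which chose the cells. The summed level of its other 15 genes was 12050 to 27766 CPM in the 16 cells and at most 4292 CPM in the other steady-state MoMacDC_c1 cells and 4608 CPM in B cells. Granulocytes, with a median of 3798 CPM, reached 19758 CPM and overlapped the 16 cells.

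The other marker lists were read in the same way. Of 9 classical monocyte genes, 9 were at least 2-fold lower, with a median log2 ratio of -6.54, where 29.3% of all genes tested were lower. Ccr2 had 1 UMI in the 16 cells against 10510 UMIs in the others, and F13a1 and Vcan had 0. Csf1r stood at 0.0928 times, Ly6c2 at 0.402 times and Lyz2 at 654 against 25917 CPM. Of 9 non-classical monocyte genes 6 were lower and 2 higher, and of 10 tested neutrophil genes 7 were lower and 0 higher. Of 14 B cell genes in the table, 3 had enough UMIs to be tested and all 3 were higher, Cd79a 431-fold, Cd79b 26.1-fold and Ly6d 180-fold, while 5 were at 0, Pax5, Cr2, Bank1, Fcer2a and Cd22. Their summed level was 1984 CPM, against 10793 CPM in steady-state B cells. Of 6 tested plasmacytoid DC genes 4 were higher, led by the sodium pump subunit Atp1b1 (527-fold) and the chemokine receptor Ccr9 (71.8-fold), but the defining lectin Siglech was at 0 in all 17 cells. The erythroid list had 0 UMIs, and the T cell list 1 UMI, in the 16 cells.

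**Figure D4:**
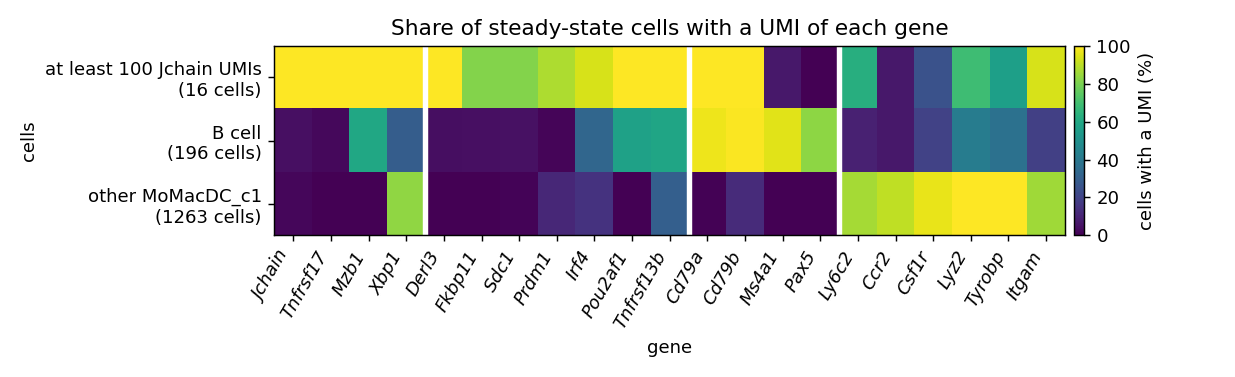
Share of cells (%, colour scale from 0 to 100) with a UMI of members, plasma cell, B cell and myeloid genes (columns) in the 16 steady-state Jchain-high cells, 196 B cells and the other 1263 MoMacDC_c1 cells (rows). Derl3 and Pou2af1 are found in 16 of 16 Jchain-high cells. Ccr2 is found in 90.6% of the MoMacDC_c1 cells without a Jchain UMI, which leaves out 24 cells of the last row.

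Genes of protein folding and export moved with the members. Of 13 tested genes of immunoglobulin assembly, 12 were at least 2-fold higher and 0 lower (median log2 ratio 2.87), among them the disulfide isomerase Pdia4 (45.4-fold), Hsp90b1 (20.3-fold) and the chaperone BiP, encoded by Hspa5 (8.06-fold). Canx, the lectin chaperone calnexin, stood at 1.97-fold. Of 17 tested genes of the unfolded protein response, 13 were higher and 1 lower (median 2.29), with Manf at 17.9-fold, Sdf2l1 at 14.8-fold and the translocon subunit Sec61b at 4.51-fold. The sensors and stress factors of the same list moved little or down. Ern1, which encodes the IRE1 enzyme that splices Xbp1 RNA, stood at 0.416-fold, Atf6 at 1.42-fold, Atf4 at 1.71-fold and Ddit3 at 1.60-fold. The 3′ counts do not tell spliced from unspliced Xbp1.

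All 6 tested transcription factors of the plasma cell list were higher (median 4.26), including Ikzf3 (31.5-fold) and the elongation factor Ell2 (23.7-fold). Of the B cell factors, Pax5 and Spib were at 0, and the 2 tested, Bcl6 and Pou2f2, were lower at 0.298 and 0.317 times. Among the receptors and ligands of the BAFF and APRIL family, the receptor Tnfrsf13b (TACI) was 5.29-fold higher and found in 16 of 16 cells, and the ligand gene Tnfsf13b (BAFF) had 0 UMIs against 101 in the other MoMacDC_c1 cells. Of 7 genes linked to plasma cell survival 3 were higher, the costimulatory receptor Cd28, Sdc1 and Slamf7 (12.6-fold), and the anti-apoptotic Mcl1 stood at 0.762-fold. Cd28 had 53 UMIs in 12 of the 16 cells against 2 UMIs in the 1263. The mucosal homing receptor Ccr10 had 60 UMIs in 11 cells against 1 UMI. Mki67, the proliferation antigen, stood at 286 against 2.24 CPM and was found in 8 of 16 cells. The deposited cell cycle phase was G1 for 14 of the 17 cells, G2M for 3 and S for 0. Most Mki67 UMIs lay in the 3 G2M cells, with 28 and 13 in the 2 MoMacDC_c4 cells and 6 in the third. The other positive cells held 1 to 3 each. Itgam, the RNA of the sort antigen, stood at 317 CPM in 15 of 16 cells, near the 339 CPM of the other MoMacDC_c1 cells and above the 104 CPM of B cells.

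Grouping the cells by 1 UMI of a gene in place of the limit gave 9 of the same 10 leading genes, with Atp1b1 in the place of Ccr10. The Jchain-positive group holds the 14 Jchain-high cells of steady-state MoMacDC_c1, so the shared names are not separate evidence. All 4 measured members were at least 2-fold higher in the 38 Jchain-positive than in the Jchain-negative steady-state MoMacDC_c1 cells, where 7.56% of 8536 genes tested were. These cells were grouped on Jchain itself, so again nothing is read from the count. The 10 genes with the highest ratio were Jchain, Tnfrsf17, Fkbp11, Derl3, Gm43291, Mzb1, Cd28, Pou2af1, Eaf2 and Atp1b1. Tnfrsf17 was at least 1365-fold higher with the 3 counts that 0 allows, and its exact lower bound was 1096. Tnfrsf17-positive cells, which were the 14 Jchain-high cells of steady-state MoMacDC_c1, gave the same 10 names. For the 24 cells with 1 Jchain UMI alone, 0 of 8 tested plasma cell genes were higher, where 6.75% of all genes tested were.

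Xbp1 was found at sizeable levels in myeloid cells also without the Jchain-high cells, although in steady-state MoMacDC_c4 it stood at 396 CPM with 2 such cells and 68.5 CPM without them. Without them, it stood in steady state at 342 CPM in macrophages, 288 CPM (277 to 299) in MoMacDC_c1 and 279 CPM in MoMacDC_c5, and these neighbours overlapped in their intervals. The interval of MoMacDC_c5 (258 to 303) lay above that of the next, granulocytes (183 to 212). Granulocytes (198 CPM), MoMacDC_c2 (172 CPM), neutrophils (143 CPM) and B cells (124 CPM) followed, and T cells were lowest at 44.0 CPM. After GM-CSF the order was led by MoMacDC_c5 at 407 CPM, then granulocytes at 275 CPM, and MoMacDC_c1 stood at 220 CPM (210 to 230) next to macrophages at 212 CPM. Xbp1 was found in 83.4% of steady-state and 71.7% of GM-CSF-treated MoMacDC_c1 cells other than the Jchain-high. In the CD115hi subsets, Xbp1 stood at 286 and 209 CPM in subset I, 209 and 204 CPM in subset III and 166 and 174 CPM in subset IV, each in steady state and after GM-CSF. The steady-state levels of subsets III and IV rest on 17 UMIs over 12 cells and 9 UMIs over 7 cells.

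**Figure D5:**
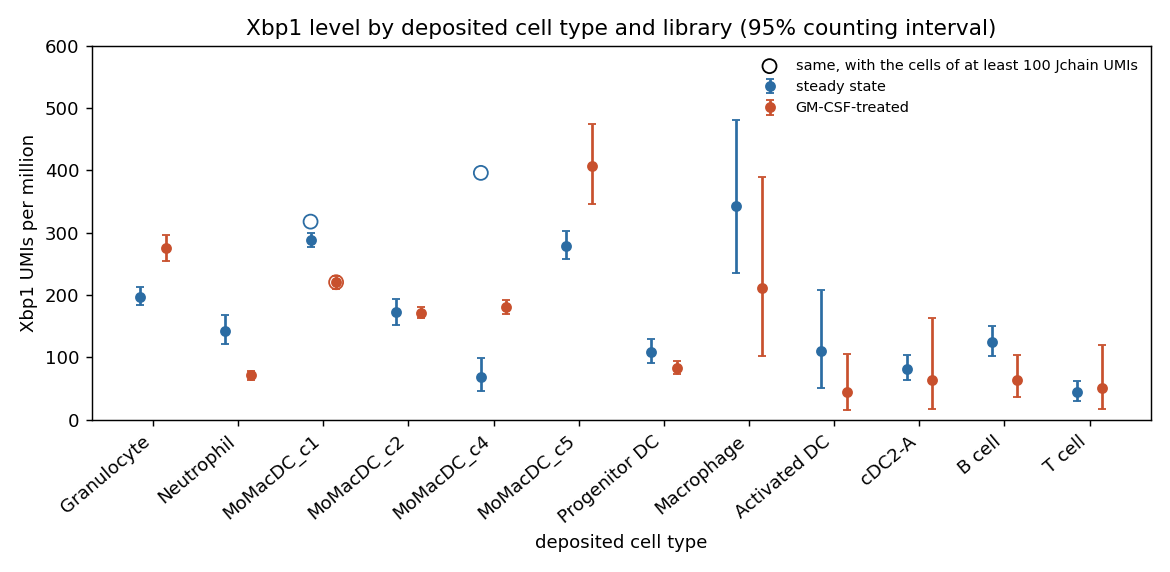
Xbp1 level (CPM) by deposited cell type and library without the 17 Jchain-high cells (filled points, with exact Poisson 95% intervals) and with them (open circles). Without them, MoMacDC_c1 stands at 288 CPM in steady state and 220 CPM after GM-CSF, and MoMacDC_c4 at 68.5 and 181 CPM.

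The comparison of the libraries depended on the Jchain-high cells for the first 3 members. In MoMacDC_c1, 3 of the 4 measured members were at least 2-fold lower in the GM-CSF-treated library, where 7.26% of 9556 genes tested were, and MoMacDC_c1 is the cell type that the choice of members used. Jchain stood at 0.0584 times the steady-state level (0.0531 to 0.0641), Tnfrsf17 at 0.0371 times (0.0119 to 0.0886) and Mzb1 at 0.306 times (0.265 to 0.352). The narrow intervals do not cover the choice of cells. Without cells above 5% mitochondrial UMIs the ratios were 0.238 for Jchain and 0.233 for Tnfrsf17, and without the top cell of each library they were 0.000282 and 0. Nearly all of these UMIs lay in 14 cells of 1 library and 1 cell of the other. Without them, the Jchain ratio was 0.0902 (0.0103 to 0.363) on 24 and 2 UMIs, Mzb1 had 13 UMIs and 1, and Tnfrsf17 had 0 UMIs in both. With the Jchain-high cells kept, 9 of the 16 plasma cell genes tested were at least 2-fold lower in the GM-CSF-treated library. Their median log2 ratio was -1.47, against -0.07 over all genes. The list holds the 4 measured members, and a count without the Jchain-high cells is not given. Of 17 unfolded protein response genes, 2 were at least 2-fold lower, also with these cells kept.

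Xbp1 in MoMacDC_c1 was less dependent on them, at 0.694 times (0.655 to 0.735) with all cells and 0.764 times (0.720 to 0.811) without the Jchain-high. In MoMacDC_c4, 2 cells decided the direction. With them Xbp1 stood at 0.457 times the steady-state level (0.390 to 0.539), and without them at 2.64 times (1.82 to 4.0), from 68.5 to 181 CPM. Other cell types held no Jchain-high cell. There the Xbp1 ratio was 1.46 (1.21 to 1.74) in MoMacDC_c5, 1.39 (1.25 to 1.55) in granulocytes, 0.996 (0.876 to 1.14) in MoMacDC_c2, 0.512 (0.283 to 0.870) in B cells and 0.496 (0.410 to 0.603) in neutrophils. In the CD115hi subsets the Xbp1 ratio was 0.731 (0.621 to 0.860) in subset I. It was 0.976 (0.590 to 1.72) in subset III and 1.05 (0.546 to 2.31) in subset IV. Those 2 wide intervals rest on 17 and 9 steady-state UMIs, so a lack of change is not shown.

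Among the finer clusters, Jchain was a gene of 1 cluster. Cluster 16 held 9539 Jchain UMIs in its 15 steady-state cells (53232 CPM) and 462 in 1 of its 2 GM-CSF-treated cells. Cluster 8 held 336, of which 328 lay in 1 cell. The other clusters held at most 10 UMIs. The monocyte clusters 2, 5 and 6 held 5, 10 and 5 Jchain UMIs in steady state (2.27 to 2.93 CPM) and 0 after GM-CSF. In the CD115hi subsets, Jchain had 1, 1, 1 and 0 UMIs in subsets I, II, III and IV of steady state and 1 UMI, in subset IV, after GM-CSF.

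The genes whose level most resembled that of Jchain depended on whether cluster 16 was among the groups. Over the 20 groups of cluster and library with at least 50 cells, where it was not, the closest gene was the splicing factor Rbm39 (Pearson's r = 0.904 of log2 CPM with 5 CPM added). Hspa1a, Fos, Tapbpl, Usmg5, Cebpz, H2-T23, Hspa1b, Tiparp and Vamp7 followed at 0.900 to 0.886. Jchain had few UMIs in these groups, and Tnfrsf17 had no UMI in any of them. Over the 31 groups with at least 10 cells, a limit chosen after the data had been seen, Jchain was closest to Mzb1 (0.971) and Pdia4 (0.899), followed by Manf, Txndc5, Tram2, Krtcap2, Spcs1, Hsp90b1, Dnajc3 and Rexo2. Tnfrsf17 was closest to Jchain (0.941) and Mzb1 (0.921), followed by Spcs1, Rexo2, Txndc5, Edem1, Pdia4, Hsp90b1, Sec11c and Krtcap2. Many of these encode proteins of the endoplasmic reticulum, such as the signal peptidase subunits Spcs1 and Sec11c. These correlations are a description over groups of 2 libraries and rest on cluster 16.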

How the data were processed

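The authors made the deposited RNA tables of raw UMI counts with Cell Ranger 3.0.2 on mm10 and the deposited tables of antibody tag counts with CITE-seq-Count 1.4.2, with a filter of 200 to 5000 genes and a limit of 15% mitochondrial UMIs per cell. The mitochondrial share is deposited in percent. Clusters, cell types, subsets and phases are labels that the authors made with Seurat 3.6.0.

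Here the UMIs of each gene in a group of cells were divided by all UMIs of that group (CPM). Genes with at least 50 UMIs over both groups were called at 2-fold, with 0.5 counts added to each sum. Ratios and intervals of named genes had no counts added. A count of 0 was given the limit that 3 counts allow. For shares at equal depth, each cell was thinned at random to 1000 UMIs (seed 20), and 38 steady-state and 578 GM-CSF-treated cells below that were left out. Steps were tested on simulated data. Scrublet in scanpy called 141 of 4827 (2.92%) and 186 of 6804 cells (2.73%) doublets, which were kept.

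The members and lists were chosen with earlier results of these data known. Named are the members, the 10 genes closest to Jchain and Tnfrsf17 over clusters, the 10 with the highest ratio in Jchain-positive or Tnfrsf17-positive cells, and genes of the marker and pathway lists. The names Ighm and Igkc were not analysed here, so the ratio and co-detection planned for Igkc were made with Mzb1, and the Jchain-high group was added after seeing the data. Alternatives covered depth, B cell marker cells, doublets, the mitochondrial limit, clusters, minimum UMIs and single cells left out. Promoter sequences are from RefSeq (GRCm38.p6) and matched 3 members by symbol. Some genes of the marker lists are not reported here. Python 3.11.15, numpy 2.4.6, scipy 1.17.1, pandas 2.3.3, scanpy 1.11.5 and matplotlib 3.10.9 were used.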

Additional observations from a re-analysis of the deposited data

Results flagged for a closer look

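Between the libraries, Mzb1 moved in opposite directions in 2 cell types, at 0.306 times the steady-state level after GM-CSF in MoMacDC_c1 and 2.97 times (2.53 to 3.50) in B cells. Xbp1 did the same in 2 cell types, at 0.457 times in MoMacDC_c4 and 1.46 times in MoMacDC_c5. Each pair was noted because its directions were opposite, and the difference was not tested, since each condition was 1 library. The MoMacDC_c4 value turned to 2.64 times without its 2 Jchain-high cells, and the Mzb1 value of MoMacDC_c1 rested on 14 such cells in steady state and 1 after GM-CSF.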

How the results depend on the processing

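Of 69 alternatives over 12 results, 29 left the value within its counting interval or within 1.5 times the count, 36 moved it and 4 turned its sign. Leaving out the Jchain-high cells was added after seeing the data, as were the Mzb1 share and Mzb1 per Jchain results. It gave Jchain and Mzb1 ratios of 0.0902 and 0.0833 and Xbp1 ratios of 0.764 in MoMacDC_c1 and 2.64 in MoMacDC_c4, Jchain and Tnfrsf17 shares of 1.90% and 0%, 0.542 Mzb1 UMIs per Jchain UMI, and differences in share between Jchain-positive and Jchain-negative cells of 0 percentage points for Tnfrsf17 and -0.242 for Mzb1. Leaving out cells with a UMI of a B cell marker gave a Jchain ratio of 0.0984, shares of 1.82% and 0%, 0.600 Mzb1 per Jchain and differences of 0 and -0.186. Clusters 2, 5 and 6 in place of MoMacDC_c1 gave a Jchain ratio of 0, shares of 1.91% and 0%, and differences of 0 and -0.195. Thinning to 1000 UMIs gave a Jchain ratio of 0.0328, shares of 1.49% and 0.548%, 0.0832 Mzb1 per Jchain, an Mzb1 difference of 73.6 and 443 genes lower. Leaving out cells above 5% mitochondrial UMIs gave ratios of 0.238 for Jchain and 0.233 for Tnfrsf17, a Tnfrsf17 share of 0.508% and 0.0974 Mzb1 per Jchain. Without the top cell of each library the ratios were 0.000282 for Jchain and 0 for Tnfrsf17. Without the steady-state cell with most Mzb1 and the steady-state cell with most Jchain, Mzb1 per Jchain was 0.0929. The mean over cells gave a Jchain ratio of 0.0315. A limit of 2 UMIs gave a Jchain share of 1.10% and differences of 100 for Tnfrsf17 and 99.9 for Mzb1. A minimum of 20 or 200 UMIs gave 1083 or 224 genes higher in Jchain-positive cells, against 645, and 200 UMIs gave 460 genes lower after GM-CSF, against 694. The Igkc results were not run, and the Tnfrsf17 ratio had no value where no UMI remained. No paired analysis was possible because each condition was 1 library. Depth limits what can be said of Tnfrsf17 in MoMacDC_c1 outside the Jchain-high cells. The 3 counts that 0 allows are 0.320 CPM in steady state and 0.347 CPM after GM-CSF. The exact upper limits are 0.394 and 0.426 CPM.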

Other observations

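Some single cells, singled out after their values were seen, held members with other genes. In MoMacDC_c4 of steady state, 1 cell of cluster 8 with 30999 UMIs held 8 Jchain, 22 Mzb1, 29 Cd79a, 21 Ms4a1 and 15 Pax5 UMIs, which are genes of B cells. In MoMacDC_c1 of steady state, 1 cell of cluster 3 held 11 Mzb1 UMIs and 0 of Jchain, with 28 of Siglech, 32 of Bst2, 21 of Tcf4 and 40 of Irf8, which are genes of plasmacytoid DCs. The GM-CSF-treated cell of cluster 16 that had 0 Jchain UMIs had a CD301b tag of 454 counts, a CD115 tag of 49 and a CD11c tag of 161, with 8 UMIs of Mgl2 and 24 of Fcer1g.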
